A study of Mus musculus with 20 samples.

Results

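The lysyl oxidases and the proteases that trim procollagen finish collagen outside the cell, and their RNA was measured here in dermal fibroblasts of old mice with and without caloric restriction and of young mice. The genes were taken by name: Lox, Loxl1, Loxl2, Loxl3 and Loxl4, the protease genes Bmp1 and Adamts2, and the enhancer genes Pcolce and Pcolce2. Of these 9 genes, 8 had a probe set that named the gene and no other, among 17097 genes measured in all, and Adamts2 had none in the annotation used. The 8 genes had 14 probe sets, and each gene was read on the one with the highest mean over all 20 arrays.

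All mice were female, with 5 arrays in each group, which the labels call biological replicates. Old CR-ND mice were on 30% caloric restriction (CR) for 7 months from 9 months of age and then ate a normal diet (ND) freely for 2 months. Old CR mice had these phases in the other order, the normal diet for 2 months and then the restriction for 7 months. For Old ND mice the normal diet lasted all 9 months, and these 3 groups were collected at 18 months of age. The labels of Young ND mice read 4 weeks of age and 4 weeks of normal diet, so it is unclear how old they were when taken. The strain is not given in the sources used here.

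Fibrillar collagen is secreted as procollagen with a propeptide at each end. Bmp1 removes the C-terminal propeptide, Pcolce binds that propeptide and speeds the cut, Pcolce2 is its close relative, and Adamts2 removes the N-terminal propeptide. The trimmed molecules assemble into fibrils, and lysyl oxidases, which need copper, oxidize lysine and hydroxylysine side chains that then form crosslinks between molecules. Lox also crosslinks elastin and is itself released from a proenzyme by Bmp1, Loxl1 is known for its role in elastic fibres, and Loxl2, Loxl3 and Loxl4 carry scavenger receptor domains in front of the catalytic domain. In skin this crosslinking gives the dermis its tensile strength.

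A promoter entry was found for 3 of the 8 measured genes in the RefSeq table of GRCm38.p6. All 3 are shown, whatever their levels. Loxl4 and Pcolce were lower in all old groups than in Young ND, while Pcolce2 passed in no comparison. A relation between these sequences and the levels was not tested. Each line holds the 250 bases before the annotated start, 5′ to 3′ on the strand of the gene, at chr19:42612807-42613056 (minus strand) for Loxl4, chr5:137611405-137611654 (minus strand) for Pcolce and chr9:95637378-95637627 (plus strand) for Pcolce2. Capitals mark matches, on either strand, to any of the motifs searched, which are the TATA box (TATAAA), the CCAAT box (CCAAT), the GC box (GGGCGG), the core of a hypoxia response element (ACGTG) and that of a SMAD binding element (CAGAC). Matches of different motifs did not overlap.
Loxl4: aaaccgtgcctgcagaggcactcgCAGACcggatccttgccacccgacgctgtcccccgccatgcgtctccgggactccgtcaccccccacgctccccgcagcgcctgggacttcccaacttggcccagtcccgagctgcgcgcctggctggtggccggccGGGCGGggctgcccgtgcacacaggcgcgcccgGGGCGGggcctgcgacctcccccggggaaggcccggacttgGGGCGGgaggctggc
Pcolce: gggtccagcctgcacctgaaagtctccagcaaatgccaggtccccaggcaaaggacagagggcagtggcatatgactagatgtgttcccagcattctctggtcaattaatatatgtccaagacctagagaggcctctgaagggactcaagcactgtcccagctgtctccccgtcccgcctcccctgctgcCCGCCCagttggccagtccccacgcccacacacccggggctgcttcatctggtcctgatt
Pcolce2: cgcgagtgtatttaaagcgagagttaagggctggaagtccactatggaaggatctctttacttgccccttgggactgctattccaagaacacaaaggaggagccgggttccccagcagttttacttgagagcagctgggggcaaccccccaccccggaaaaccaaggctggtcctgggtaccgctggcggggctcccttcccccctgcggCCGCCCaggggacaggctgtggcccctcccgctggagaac
The GC box had 3 matches in Loxl4, 1 in Pcolce and 1 in Pcolce2, and at least 1 match in 32.7% of 32851 promoters of the same length. The SMAD element core had 1 match in Loxl4 and was found in 42.2% of promoters. The TATA box (12.4% of promoters), the CCAAT box (33.8%) and the hypoxia element core as ACGTG (16.6%) had no match in these 3 windows. Other forms of these motifs were not searched. The share of G and C was 76.0% in Loxl4, 58.8% in Pcolce and 61.2% in Pcolce2, with a median of 52.4% over all promoters.

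Array medians lay between 5.27 and 5.34, and no 2 arrays held the same values. The cells had been sorted for Pdgfra and CD34. Over all genes, 6.49% were lower and 4.45% higher in Old ND than in Young ND at an adjusted p under 0.05 in limma. Of 8 fibroblast markers 3 were lower and 0 higher in Old ND against Young ND, namely Cd34 (11.01 in Old ND against 11.30 in Young ND, adjusted p = 0.0303), Col1a1 (-0.48) and Col3a1 (-0.27), the collagen genes being substrates of the enzymes described here. The mean log2 level of the 8 markers lay between 10.71 and 10.80 on Old ND arrays, all below the Young ND arrays (10.86 to 10.91). Dcn had 13.21 in Old ND against 13.19 in Young ND, and Pdgfra 6.20 in Old ND against 5.71 in Young ND (adjusted p = 0.0699). Of 8 keratinocyte markers none passed in limma between Old ND and Young ND (1 had an unadjusted p under 0.05), and their mean log2 level per array ranged from 6.71 to 7.72 in Old CR-ND, 6.62 to 7.22 in Old CR, 6.0 to 8.15 in Old ND and 6.30 to 7.42 in Young ND. The array of Old ND replicate 1 had the highest keratinocyte level. Of 10 genes of the response to cell dissociation, Egr2 was higher in Old ND than in Young ND (0.84 ± 0.13, adjusted p = 0.000153; 5 of the 10 had an unadjusted p under 0.05). The mean log2 level of the 10 lay between 11.43 and 11.75 on Old ND arrays, all above the Young ND arrays (11.30 to 11.38). Egr2 was also higher in Old CR-ND than in Young ND (0.72 ± 0.13, adjusted p = 0.00122) and lower in Old CR than in Old ND (-0.64 ± 0.13, adjusted p = 0.0119), and Junb was higher in Old CR than in Young ND (0.48 ± 0.15, adjusted p = 0.0403). Of 4 pericyte markers Des was lower in Old ND against Young ND (-0.35 ± 0.11, adjusted p = 0.0408). Of 7 leukocyte markers Cd68 differed by 0.94 ± 0.32 between Old ND and Young ND (adjusted p = 0.068) and was higher in Old CR than in Young ND (1.03 ± 0.32, adjusted p = 0.039). The part of these marker differences in the results below was not tested. The numbers in the sample titles form 2 separate runs of 13 and 7 arrays, with 2 arrays of each group but Old CR, which had 1, in the second run. With the groups held constant 2934 of all 17097 genes differed between the runs in limma. Of the 8 genes described here Bmp1 passed (-0.24 in the second run, adjusted p = 0.0114). Loxl4 (-0.26, adjusted p = 0.0501) and Lox (-0.36, adjusted p = 0.0932) had larger shifts that did not pass. Values within the runs are therefore given below. Since RNA of sorted cells was pooled for each array, fewer cells of a type and less RNA per cell cannot be told apart.

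Old ND set against Young ND shows what differs with age on the normal diet. The labelled time on that diet differed too, 9 months against 4 weeks, and cannot be told apart from age. Here 6 of the 8 genes were lower and 0 were higher in Old ND, where 6.49% of all genes were lower and 4.45% higher. All 8 genes were brighter than the median gene. In either direction 1870 of 17097 genes passed, and 1721 of 8550 did with dim genes left out. The median log2 difference of the 8 genes was -0.68, against 0.00 for all genes. The crosslinking enzyme gene Loxl2 fell by 1.09 on the log2 scale and the procollagen enhancer gene Pcolce by 0.87, while Loxl3 and Pcolce2 did not pass. A gene counts as past the test here when its two-sided limma p, adjusted by Benjamini-Hochberg over all 17097 genes, is under 0.05. Errors of differences are limma standard errors, and 95% intervals are for each gene alone.

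**Figure D1:**
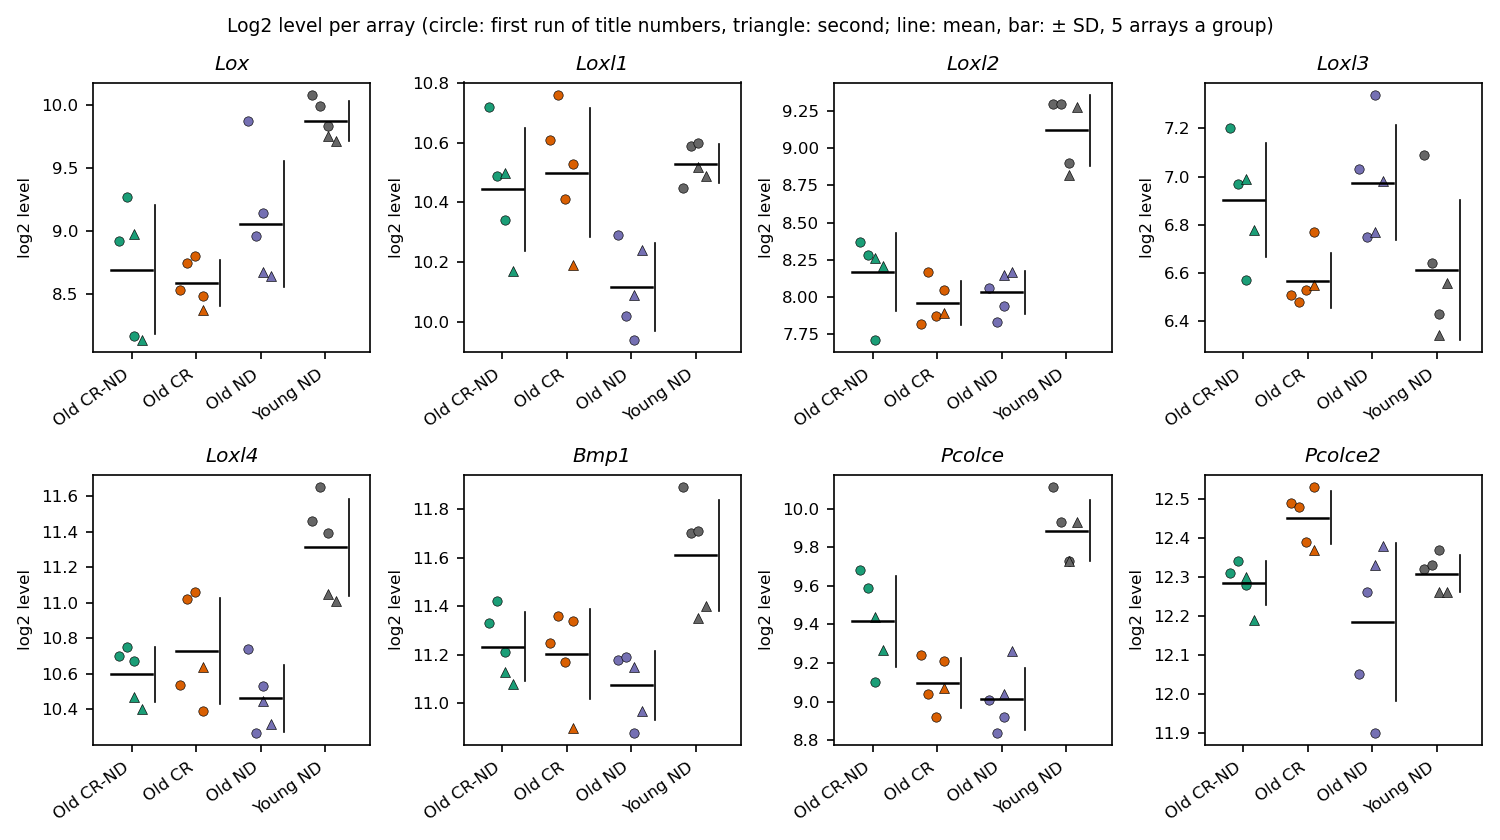
Log2 level of each gene (vertical axis) on each array, by group from Old CR-ND to Young ND; circles are arrays of the first run of title numbers, triangles of the second, horizontal lines are means and vertical bars ± SD over 5 arrays. All 5 Young ND arrays lie above all old arrays for Loxl2 and Pcolce, the Old ND arrays lie lowest as a group for Loxl1, and Loxl3 and Pcolce2 overlap between Old ND and Young ND.

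Loxl2 had log2 levels of 8.06, 7.83, 7.94, 8.15 and 8.17 in the Old ND arrays, against 9.30, 9.30, 8.90, 8.82 and 9.28 in the Young ND arrays. The groups did not overlap. The means were 8.03 ± 0.14 in Old ND and 9.12 ± 0.24 in Young ND (SD, n = 5 each), a log2 difference of -1.09 ± 0.12 (2.13-fold lower, adjusted p = 4.13e-06). Loxl4, a relative of Loxl2, had log2 levels of 10.74, 10.27, 10.53, 10.45 and 10.32 in Old ND, against 11.46, 11.65, 11.39, 11.05 and 11.01 in Young ND. These groups were separate too, and the log2 difference was -0.85 ± 0.14 (1.80-fold lower, adjusted p = 0.000281). A second probe set of Loxl4 differed by -0.78 ± 0.15 on the log2 scale (adjusted p = 0.00186, over all probe sets that name 1 gene).

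Lox, the founding member of the family, had log2 levels of 9.87, 8.96, 9.14, 8.67 and 8.64 in Old ND, against 10.08, 9.99, 9.83, 9.75 and 9.71 in Young ND. Old ND replicate 1 lay within the Young ND range and the other 4 Old ND arrays lay below it. The means were 9.06 ± 0.50 in Old ND and 9.87 ± 0.16 in Young ND (SD, n = 5 each), a log2 difference of -0.82 ± 0.22 (1.76-fold lower, adjusted p = 0.0168). Without Old ND replicate 1, which also had the highest keratinocyte marker level, the log2 difference was -1.02 (adjusted p = 0.00144). The part of keratinocyte RNA in the level of Lox was not tested. A second probe set of Lox differed by -0.98 ± 0.21 (adjusted p = 0.00399), and the dimmest, with a mean log2 level of 3.41 near the lowest deposited value of 2.71, by -0.10 ± 0.06 (adjusted p = 0.394).

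Loxl1 had log2 levels of 10.29, 10.02, 9.94, 10.09 and 10.24 in Old ND, against 10.45, 10.59, 10.60, 10.52 and 10.49 in Young ND. The groups did not overlap, and the difference was the smallest of those that passed, at -0.41 ± 0.10 on the log2 scale (1.33-fold lower, adjusted p = 0.0111). A second, dimmer probe set of Loxl1 differed by -0.27 ± 0.23 (adjusted p = 0.55), and with the mean of both probe sets the call was lost (-0.34, adjusted p = 0.0862). Loxl3 was the 1 gene of the 8 with a positive difference. It had log2 levels of 7.03, 6.75, 7.34, 6.77 and 6.98 in Old ND, against 7.09, 6.64, 6.43, 6.34 and 6.56 in Young ND. The groups overlapped through Young ND replicate 1, and the log2 difference of 0.36 ± 0.14 did not pass (95% interval 0.08 to 0.65, adjusted p = 0.0984). Without Young ND replicate 1 it was 0.48 and passed (adjusted p = 0.0147).

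Bmp1, the C-proteinase, had log2 levels of 11.18, 11.19, 10.88, 11.15 and 10.97 in Old ND, against 11.89, 11.70, 11.71, 11.35 and 11.40 in Young ND. The groups did not overlap, with a log2 difference of -0.54 ± 0.11 (1.45-fold lower, adjusted p = 0.00209). Of its other probe sets, one differed by -0.38 ± 0.09 (adjusted p = 0.011) and the dimmest by -0.12 ± 0.10 (adjusted p = 0.498). Pcolce, the enhancer of the same cut, had log2 levels of 9.01, 8.84, 8.92, 9.04 and 9.26 in Old ND, against 10.11, 9.93, 9.73, 9.73 and 9.93 in Young ND. The groups were separate, with a log2 difference of -0.87 ± 0.11 (1.83-fold lower, adjusted p = 1.18e-05). Its relative Pcolce2 had log2 levels of 12.05, 12.26, 11.90, 12.33 and 12.38 in Old ND, against 12.32, 12.33, 12.37, 12.26 and 12.26 in Young ND. All 5 Young ND levels lay inside the Old ND range, and the log2 difference of -0.12 ± 0.08 did not pass (95% interval -0.28 to 0.03, adjusted p = 0.365).

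**Figure D2:**
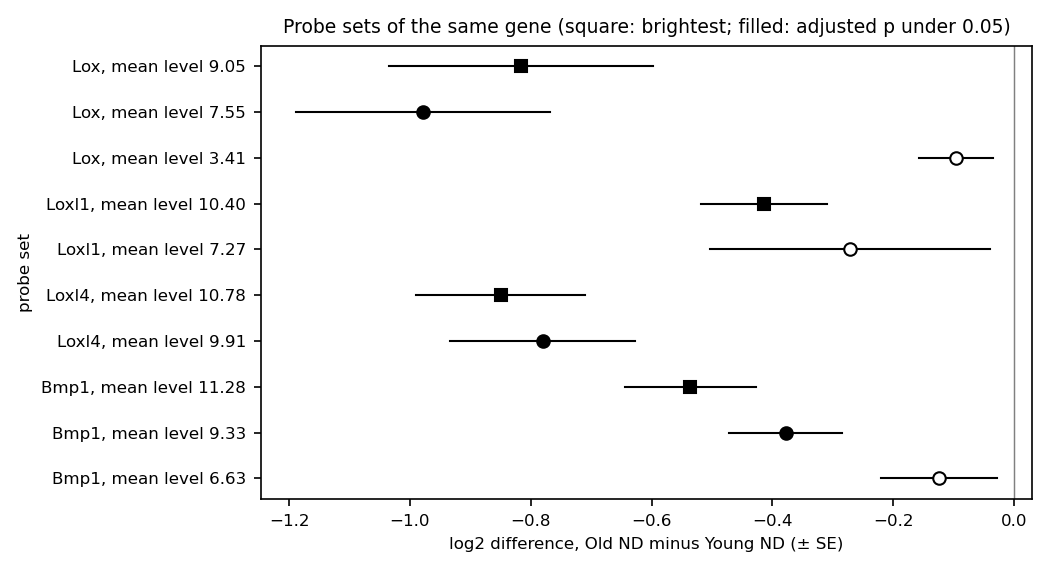
Log2 difference of Old ND minus Young ND (horizontal axis, ± limma SE) for every probe set of the 4 genes with more than 1, labelled with the mean log2 level over 20 arrays; squares are the brightest probe set of a gene and filled symbols have an adjusted p under 0.05 over all probe sets that name 1 gene. Every difference is negative, and the dimmest probe set of Lox, Loxl1 and Bmp1 did not pass.

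Within the runs of title numbers the age difference kept its sign for 7 of the 8 genes. Within the first run (3 arrays a group) and the second run (2 arrays a group) the log2 difference was -1.22 and -0.89 for Loxl2, -0.99 and -0.65 for Loxl4, and -1.0 and -0.68 for Pcolce. These 3 genes passed in each run. For Lox the first run gave -0.64 (adjusted p = 0.15) and the second -1.08 (adjusted p = 0.0163). For Loxl1 it was -0.46 (adjusted p = 0.0308) and -0.34 (adjusted p = 0.238), and for Bmp1 -0.68 (adjusted p = 0.000996) and -0.32 (adjusted p = 0.207). For Loxl3 it was 0.32 and 0.43, with no call in either run. Pcolce2 was the exception in sign, with -0.27 over the first-run arrays and 0.10 over those of the second. With the run as a block in the fit, the same 6 genes passed.

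**Figure D3:**
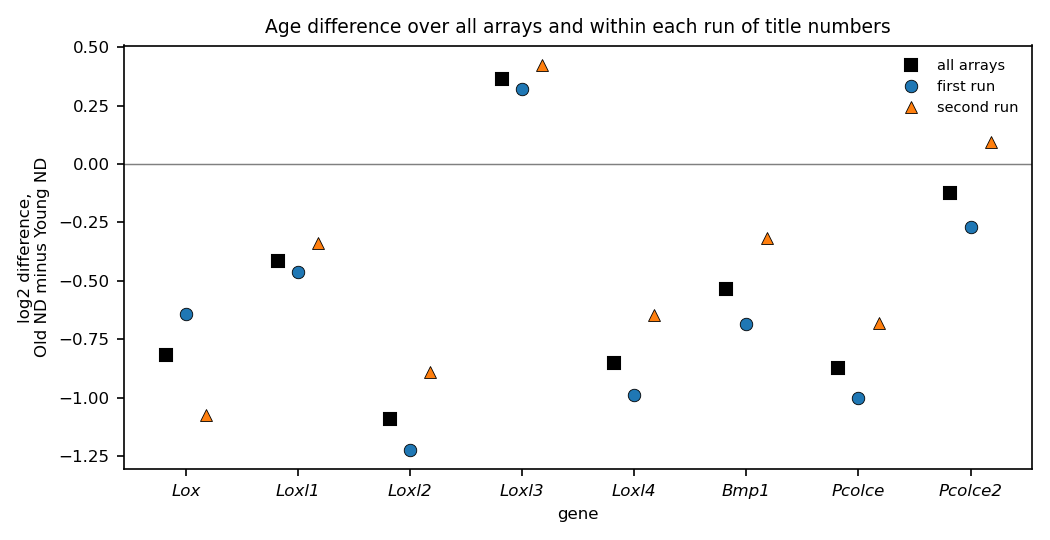
Log2 difference of Old ND minus Young ND (vertical axis) for each gene over all arrays (squares), within the first run of title numbers (circles) and within the second (triangles). Lox, Loxl1, Loxl2, Loxl4, Bmp1 and Pcolce lie below 0 in both runs, Loxl3 lies above 0 in both, and Pcolce2 changes sign.

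The comparison of Old CR with Old ND asks what late restriction does at a fixed age. None of the 8 genes passed in limma (4 had an unadjusted p under 0.05), where 2.39% of all genes passed, 1.57% higher and 0.819% lower. The median log2 difference was 0.11, against 0.00 for all genes. Loxl1 and Pcolce2 were the nearest to the threshold, both with a higher mean in Old CR, and Loxl3 and Lox had lower means in Old CR.

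Loxl1 had log2 levels of 10.61, 10.76, 10.41, 10.53 and 10.19 in Old CR, and of its Old ND levels the highest was 10.29. Thus 4 of 5 Old CR arrays lay above all Old ND arrays, and the log2 difference was 0.38 ± 0.10 (95% interval 0.17 to 0.60, adjusted p = 0.0539). First-run arrays gave 0.49 (adjusted p = 0.0279), those of the second run, with 1 Old CR array, gave 0.03, and a fit with the run as block gave 0.36 (adjusted p = 0.046). Pcolce2 had log2 levels of 12.49, 12.48, 12.39, 12.53 and 12.37 in Old CR, and the highest Old ND level was 12.38. Again 4 of 5 Old CR arrays lay above all Old ND arrays, with a log2 difference of 0.27 ± 0.08 (95% interval 0.11 to 0.43, adjusted p = 0.0687). First-run arrays gave 0.40 (adjusted p = 0.0164) and second-run arrays 0.02. Leaving out Old CR replicate 5, the lone array of the second run, gave a call for Loxl1 (0.46, adjusted p = 0.016). Leaving out Old ND replicate 4 or 5, the Old ND arrays of that run, gave a call for Pcolce2 (0.30, adjusted p = 0.0416, and 0.32, adjusted p = 0.0291).

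Loxl3 had log2 levels of 6.51, 6.48, 6.53, 6.77 and 6.55 in Old CR, against 7.03, 6.75, 7.34, 6.77 and 6.98 in Old ND. Old CR replicate 4 alone reached the Old ND range, and the log2 difference was -0.41 ± 0.14 (95% interval -0.69 to -0.12, adjusted p = 0.13). Lox had log2 levels of 8.53, 8.74, 8.80, 8.48 and 8.37 in Old CR, which overlapped the Old ND range. Its log2 difference was -0.47 ± 0.22 (95% interval -0.92 to -0.02, adjusted p = 0.319). Loxl2 had log2 levels of 7.82, 8.17, 7.87, 8.05 and 7.89 in Old CR, of which 4 lay within the Old ND range and replicate 1 just below its lowest level of 7.83, with a difference of -0.07 ± 0.12 (95% interval -0.33 to 0.19). For Loxl4 the difference was 0.27 ± 0.14 (95% interval -0.02 to 0.56), for Bmp1 0.13 ± 0.11 (-0.10 to 0.36) and for Pcolce 0.08 ± 0.11 (-0.14 to 0.31), all on the log2 scale.

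**Figure D4:**
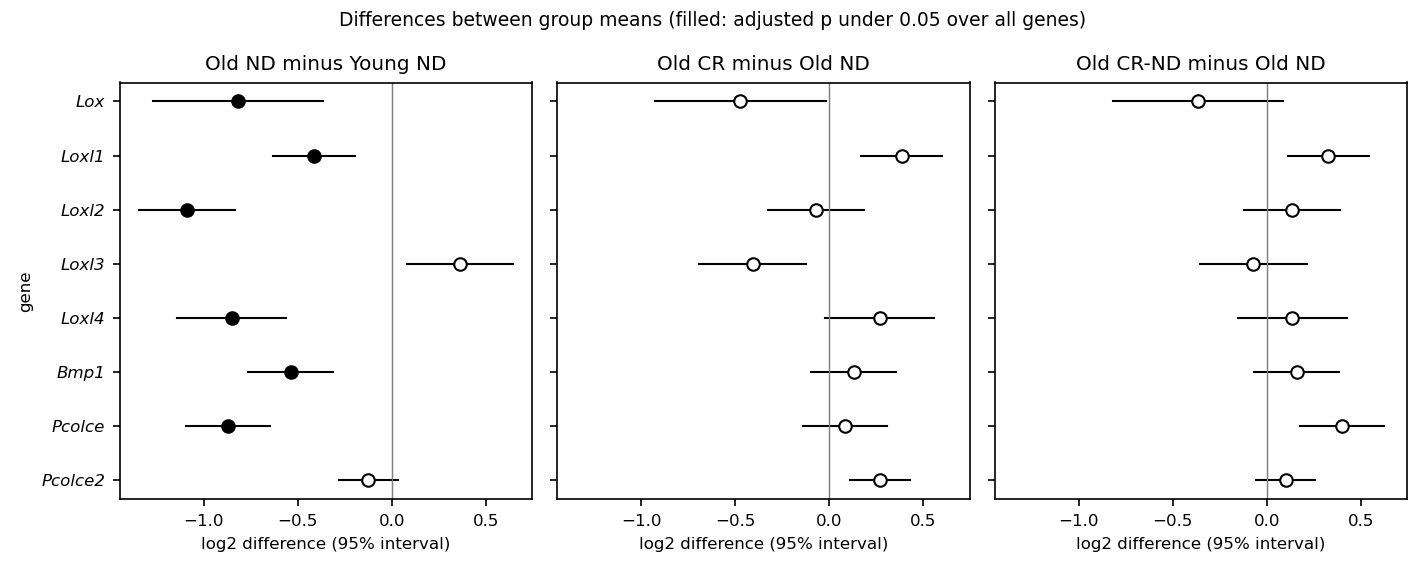
Log2 difference between group means (horizontal axis) with its 95% interval for each gene in 3 comparisons; filled circles have an adjusted p under 0.05 over all 17097 genes. In Old ND minus Young ND 6 circles are filled, all below 0, and in both restriction comparisons with Old ND none is.

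Old CR-ND with Old ND asks what remains of earlier restriction after a return to the normal diet. None of the 8 genes passed in limma (2 had an unadjusted p under 0.05, Pcolce and Loxl1), in a comparison where 0.00585% of all genes passed, which is 1 gene, the imprinted noncoding RNA Rian (0.96 ± 0.13, adjusted p = 0.00736). Pcolce had log2 levels of 9.68, 9.59, 9.10, 9.44 and 9.27 in Old CR-ND, and the highest Old ND level was 9.26. So 4 of 5 Old CR-ND arrays lay above all Old ND arrays, with a log2 difference of 0.40 ± 0.11 (95% interval 0.18 to 0.63, adjusted p = 0.438). First-run arrays gave 0.53 and second-run arrays 0.21. Loxl1 had log2 levels of 10.72, 10.49, 10.34, 10.50 and 10.17 in Old CR-ND, of which 4 lay above all Old ND levels. Its log2 difference was 0.33 ± 0.10 (95% interval 0.11 to 0.54, adjusted p = 0.749). The differences of the other 6 genes had 95% intervals that held 0. Among them the widest was that of Lox, at -0.37 ± 0.22 (95% interval -0.82 to 0.09), whose log2 levels in Old CR-ND were 8.92, 9.27, 8.16, 8.97 and 8.13.

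Old CR-ND with Old CR asks what the return to the normal diet changes against continued restriction. None of the 8 genes passed in limma (3 had an unadjusted p under 0.05), where 0.333% of all genes passed. Pcolce2 was lower on all 5 Old CR-ND arrays (12.31, 12.34, 12.28, 12.30 and 12.19) than on all 5 Old CR arrays, whose lowest level was 12.37. Its log2 difference was -0.17 ± 0.08 (95% interval -0.33 to -0.01, adjusted p = 0.461). For Pcolce the difference was 0.32 ± 0.11 (95% interval 0.10 to 0.54, adjusted p = 0.258), with 4 of 5 Old CR-ND arrays above all Old CR arrays (9.24, 9.04, 8.92, 9.21 and 9.07). Loxl3, with 7.20, 6.97, 6.57, 6.99 and 6.78 in Old CR-ND, differed by 0.33 ± 0.14 (95% interval 0.05 to 0.62, adjusted p = 0.386). For Lox (0.11), Loxl1 (-0.06), Loxl2 (0.21), Loxl4 (-0.13) and Bmp1 (0.03) the intervals held 0.

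Both restricted groups were also set against Young ND, with the same Young ND arrays in each comparison. In Old CR 5 of the 8 genes were lower and 0 higher, where 5.56% of all genes were lower and 7.11% higher (12.7% in all). In Old CR-ND 5 were lower and 0 higher, where 3.82% of all genes were lower and 3.22% higher (7.04% in all). Lox, Loxl2, Loxl4, Bmp1 and Pcolce passed in each comparison with Young ND, and Loxl1 passed in that of Old ND alone. For Lox the log2 difference from Young ND was -1.18 ± 0.22 in Old CR-ND (adjusted p = 0.00148), -1.29 ± 0.22 in Old CR (adjusted p = 0.000359) and -0.82 ± 0.22 in Old ND. For Loxl2 it was -0.95 ± 0.12 in Old CR-ND, -1.16 ± 0.12 in Old CR and -1.09 ± 0.12 in Old ND. For Pcolce it was -0.47 ± 0.11 in Old CR-ND (adjusted p = 0.00853), -0.79 ± 0.11 in Old CR (adjusted p = 3.92e-05) and -0.87 ± 0.11 in Old ND. Of these 3 genes, none passed between the old groups themselves. The call of Pcolce in Old CR-ND was lost over first-run arrays alone (-0.47, adjusted p = 0.0956) and over second-run arrays alone (-0.48, adjusted p = 0.108).

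Loxl4 had log2 levels of 10.70, 10.75, 10.67, 10.47 and 10.40 in Old CR-ND and of 10.54, 11.02, 11.06, 10.39 and 10.64 in Old CR, against a lowest Young ND level of 11.01. It differed from Young ND by -0.71 ± 0.14 in Old CR-ND (adjusted p = 0.00228), where the groups were separate, and by -0.58 ± 0.14 in Old CR (adjusted p = 0.00712), where 2 of 5 arrays reached the Young ND range. Bmp1 had log2 levels of 11.33, 11.42, 11.21, 11.13 and 11.08 in Old CR-ND and of 11.25, 11.36, 11.17, 11.34 and 10.90 in Old CR, so that 1 array of each group reached the lowest Young ND level of 11.35. Its differences from Young ND were -0.38 ± 0.11 in Old CR-ND (adjusted p = 0.0382) and -0.41 ± 0.11 in Old CR (adjusted p = 0.0151). The call in Old CR-ND was lost without any 1 of 6 arrays, Young ND replicate 1, 2 or 3 or Old CR-ND replicate 3, 4 or 5 (adjusted p of 0.0813 to 0.111). Bmp1 in Old CR lost its call without Young ND replicate 1 (-0.34, adjusted p = 0.0501). With the mean of all its probe sets, Bmp1 lost the call in Old CR (-0.24, adjusted p = 0.0601) and in Old CR-ND (-0.25, adjusted p = 0.0737). The second probe set of Loxl4 passed in Old CR-ND (-0.62 ± 0.15, adjusted p = 0.0173) but not in Old CR (-0.45 ± 0.15, adjusted p = 0.0612). On second-run arrays, with 1 Old CR array, Loxl4 in Old CR differed by -0.39. Loxl1 differed from Young ND by -0.09 ± 0.10 in Old CR-ND (95% interval -0.30 to 0.13) and by -0.03 ± 0.10 in Old CR (95% interval -0.25 to 0.19).

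Ordered by mean level, Young ND stood first for Lox, Loxl1, Loxl2, Loxl4, Bmp1 and Pcolce. The step down to the next group passed for 5 of them, and for Loxl1 it did not (0.03, adjusted p = 0.909). None of the steps between old groups that stood next to each other passed, for any of the 8 genes. For Pcolce2 Old CR stood first and Old ND last, and for Loxl3 Old ND stood first and Old CR last, with no step past the test in either order.

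The 8 genes did not follow each other alike from array to array. Loxl2 and Pcolce were the pair with the highest Pearson correlation over the 20 arrays (0.91), which shares the difference between Young ND and old arrays, and after the group means were taken out it was 0.74. Lox and Loxl2 had 0.78 over all arrays and 0.32 within groups, and Loxl3 and Pcolce2 had -0.52 and -0.25. The values come from 20 arrays, with 5 arrays a group and 2 runs, and describe these arrays alone.

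Among genes brighter than the median gene, those most like each of the 8 over the 20 arrays were picked by Pearson correlation. For Loxl2 they were Ift20 (0.97, and 0.79 within groups), a component of intraflagellar transport, and Gpx7 (0.97, and 0.76 within groups), a peroxidase of the endoplasmic reticulum. For Pcolce they were Rcn3 (0.96), a calcium-binding protein of the secretory pathway, and Ctsh (0.95), a lysosomal protease. For Lox they were Crip2 (0.90) and the gelatinase gene Mmp2 (0.90), and for Loxl1 Blvrb (0.85) and the complement regulator Cd55 (0.85). Hdlbp (0.95) and the kinase gene Src (0.92) were nearest to Loxl4, and Creb3l1 (0.92), a transcription factor of secretory cells, and Src (0.91) to Bmp1. Tmem119 (0.88) and Mgst3 (0.87) were nearest to Loxl3, and Osr2 (0.89) and Duoxa1 (0.88) to Pcolce2. These are the highest of many correlations, and over all arrays they share the differences between groups. Within groups the lowest of them was 0.70 (Blvrb with Loxl1) and the highest 0.87 (Mgst3 with Loxl3). Only the group means were taken out for the values within groups, so these still hold any difference between the runs. Creb3l1 itself differed by -1.03 between Old ND and Young ND, and Tmem119 by 1.09 in that comparison and -0.97 between Old CR and Old ND, on the log2 scale.

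The other genes of collagen maturation were set beside these in Old ND against Young ND. Over all genes 6.49% were lower and 4.45% higher in that comparison. Of 15 measured hydroxylases and chaperones, which act on collagen inside the cell, 11 were lower and 0 higher, with a median log2 difference of -0.50. The smallest adjusted p values were those of P3h4 (-1.06 ± 0.08), which takes part in lysyl hydroxylation of collagen, the prolyl 3-hydroxylase P3h1 (-0.99 ± 0.13), the prolyl 4-hydroxylase subunit P4ha2 (-1.69 ± 0.14) and the collagen chaperone Serpinh1 (-0.79 ± 0.08). The lysyl hydroxylase Plod1, which makes the hydroxylysine that lysyl oxidases can act on, fell by 1.45 ± 0.25 (adjusted p = 0.000481). Of 11 fibrillar collagens, the substrates, 5 were lower and 1 higher, among them Col5a2 (-1.06 ± 0.10), Col5a3 (-1.72 ± 0.20), Col5a1 (-0.98 ± 0.12) and Col1a1 (-0.48 ± 0.08). The mean log2 level of Col1a1 was 12.85 in Old ND, against 13.33 in Young ND, and the top value of all arrays was 13.46.

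Of 9 other procollagen proteases and convertases none passed in limma in that comparison (3 had an unadjusted p under 0.05), and the nearest were the convertase Pcsk6 (-0.54, adjusted p = 0.0718) and the Bmp1 relative Tll1 (0.64, adjusted p = 0.0864). The counts that follow stand beside the same shares of all genes, 6.49% lower and 4.45% higher. Of 11 elastic fibre genes 1 was lower, Mfap2 (-0.48 ± 0.13), and elastin itself, Eln, differed by -0.18 ± 0.14 (adjusted p = 0.492). Of 8 genes of copper delivery 2 were lower, the copper importer Slc31a1 (-0.98 ± 0.22, adjusted p = 0.00507) and the copper chaperone Atox1 (-0.34 ± 0.08, adjusted p = 0.0098). Of 9 binding partners of Bmp1 or lysyl oxidases 1 was lower, Mia3 (-0.57 ± 0.12), which helps load procollagen for export. Of 9 TGF-beta genes the target Ccn2 was higher (0.77 ± 0.13) and Tgfbi lower (-0.43 ± 0.14, adjusted p = 0.0492). Of 10 hypoxia genes Egln3 was higher (0.73 ± 0.23) and Hif1a lower (-0.83 ± 0.15).

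**Figure D5:**
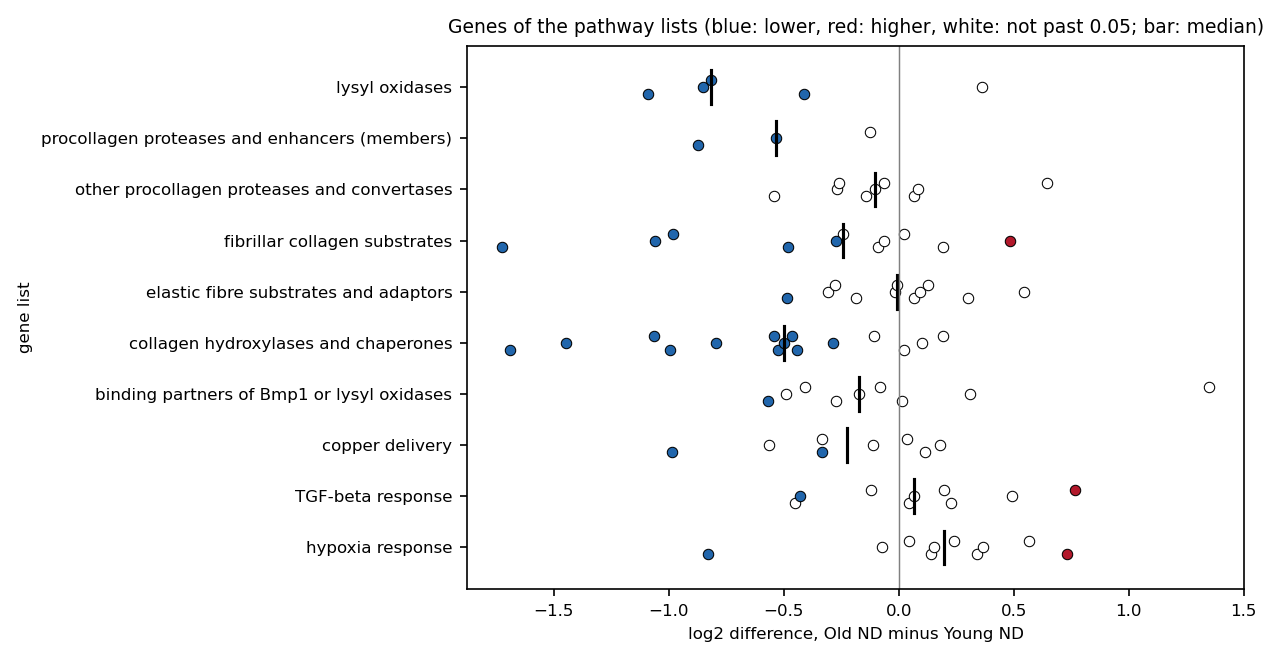
Log2 difference of Old ND minus Young ND (horizontal axis) for each measured gene of 10 lists (vertical axis); blue genes were lower and red genes higher at an adjusted p under 0.05, white genes did not pass, and black bars are list medians. The lists of lysyl oxidases, of Bmp1 with Pcolce and Pcolce2, and of hydroxylases have medians of -0.82, -0.54 and -0.50. The other 7 lie between -0.24 and 0.20, that of the other procollagen proteases and convertases at -0.10.

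In Old ND against Young ND 10.9% of all genes had passed, and in Old CR against Old ND 2.39% did. More genes passed in Old CR against Old ND than in Old ND against Young ND among elastic fibre genes. The same held among the other procollagen proteases and convertases. As many passed among the binding partners and among the hypoxia genes. In the other lists fewer genes passed in Old CR against Old ND. None of the 15 hydroxylases and chaperones did in limma (2 had an unadjusted p under 0.05), with Plod2 nearest (-0.50, adjusted p = 0.0521). The convertase Pcsk6 was higher by 1.04 ± 0.19 (adjusted p = 0.00534), at 9.04 in Old CR and 8.00 in Old ND. The fibrillar collagen gene Col27a1 was lower (-0.51 ± 0.10, adjusted p = 0.00825), the microfibril gene Mfap4 differed by -0.76 ± 0.17 and the fibrillin gene Fbn2 by 0.59 ± 0.15. Postn, whose product binds Bmp1, differed by -2.38 ± 0.51 (adjusted p = 0.0157), and Ccn2 by -0.51 ± 0.13 (adjusted p = 0.0482). Of the hypoxia list Bnip3 (0.82 ± 0.18) and Ddit4 (0.71 ± 0.16) were higher. None of the 8 copper delivery genes passed (2 had an unadjusted p under 0.05), and none of the genes of these lists did in Old CR-ND against Old ND or against Old CR, where Pcsk6 was nearest in the first (0.75, adjusted p = 0.396, tied with P3h4 at 0.31) and Col5a3 in the second (0.85, adjusted p = 0.0627).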

How the data were processed

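Fibroblasts were sorted from collagenase-digested skin without subdermis as positive for Pdgfra and CD34 and negative for CD45, CD117, CD24, CD31 and EpCam, per the labels. Each Affymetrix array took 8 µg of cDNA, from RNA of 10000 cells after 20 amplification cycles. The deposited values are log2 levels of probe sets, which the authors obtained by RMA in affy, per the submitters' processing notes. Versions are not given in the sources used here. Values have 2 decimals and range from 2.71 to 13.46. Arrays carry no read depth, so precision rests on how many there were and on the spread between them (median standard error 0.10).

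Of 45141 probe sets, 28898 named 1 gene (28689 updated by Entrez number to RefSeq symbols), 551 several and 15692 none. The brightest probe set per gene was kept, and no dim gene was left out. Groups came from the labels. With limma 3.58.1 (lmFit, eBayes; R 4.3.3), group means were fitted to all 20 arrays without covariates, with 16 residual and 4.19 prior degrees of freedom. The 6 comparisons were tested two-sided and adjusted by Benjamini-Hochberg over 17097 genes. The procedure was tested on simulated data.

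The genes and the lists were chosen with earlier results of these data known. All 8 genes are named. From each pathway list the rule picked, per comparison, up to 4 genes that passed, by smallest adjusted p, or up to 2 where none passed. Not all of these are named. Plod1, Eln, Rian, the genes of marker lists and the changes of Creb3l1 and Tmem119 were given beyond it. For likeness it took the 2 genes with the highest correlation. Alternatives covered probe sets, a filter on dim genes, normalization, variance model, array weights, groups in the fit, runs of title numbers, thresholds and each array left out. Collection days are not given per sample in the sources used here and were not modelled.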

Additional observations from a re-analysis of the deposited data

Results flagged for a closer look

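Over 32 sets of 5 arrays (8 genes in 4 groups), Dixon's test picked out 2 values, and chance alone picks about 1 in 20 sets. Loxl2 on Old CR-ND replicate 3 was 7.71, far below the other 4 Old CR-ND arrays, which lay between 8.21 and 8.37. Loxl3 on Old CR replicate 4 was 6.77, above the other 4 Old CR arrays, which lay between 6.48 and 6.55.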

How the results depend on the processing

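The 8 genes in 6 comparisons were recomputed under 23 alternatives each, 1104 values in all. No called difference changed its sign, 24 called differences lost the call and 13 uncalled ones gained it, and 23 uncalled differences turned their sign without a call. The number of genes called in Old CR against Old ND, 0 at first, was 1 with dim genes left out (Loxl1), 1 with the run as a block (Loxl1), 2 with array weights and 2 within the first run (Loxl1 and Pcolce2 both times), and 2 at an adjusted p threshold of 0.10. On second-run arrays alone, with a single Old CR array assumed to vary like the other groups, 3 genes were called in Old CR and 3 in Old CR-ND against Young ND, in place of 5 each, and fewer arrays were fitted. With each array left out in turn the count ran from 6 to 7 for Old ND against Young ND, from 4 to 5 for Old CR and for Old CR-ND against Young ND, from 0 to 1 for Old CR against Old ND, and stayed at 0 for Old CR-ND against Old ND and against Old CR. Bmp1 in Old CR-ND against Young ND lost its call under 11 of 23 alternatives. Over all genes, Old ND against Young ND had 1870 calls, 3078 with every probe set tested and 1049 on second-run arrays; Old CR against Young ND had 2167, 3538 and 576. Old CR-ND against Young ND had 1203 calls, 1891 with every probe set, 795 on first-run and 621 on second-run arrays, and 790 without Old CR-ND replicate 3. Old CR against Old ND had 409 calls, 615 with every probe set, 711 with the run as a block, 795 on first-run and 1 on second-run arrays, 191 with 2 groups fitted, and as few as 201 with an array left out. Old CR-ND against Old CR had 57 calls, 235 with array weights, 120 with the block, 10 on first-run and 1 on second-run arrays, and 17 to 110 with an array left out. Old CR-ND against Old ND had 1 call, 11 with every probe set, 3 with dim genes left out, 2 with quantile normalization once more, 8 with the block, 22 on first-run arrays, 0 on second-run arrays and with 2 groups fitted, and up to 5 with an array left out. The cause of a lost or gained call was not tested. No paired analysis was possible because the labels carry no replicate numbers shared between groups.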
